A study of Mus musculus with 4 samples.

Results

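The levels described here are those of transcripts in 2 input libraries of an m6A-seq experiment, 1 from WT and 1 from KO mouse macrophages. Both libraries came from C57BL/6 bone marrow cells grown for 7 days with macrophage colony-stimulating factor (M-CSF), a growth factor that drives marrow cells to become macrophages. WT cells carried Mettl3fl/fl, that is floxed alleles of Mettl3, and KO cells carried LysM-cre with Mettl3fl/fl. The floxed alleles are therefore shared by both genotypes and the Cre, driven by the lysozyme 2 gene of myeloid cells, is carried by KO cells alone. An input library is the fragmented poly(A) RNA before precipitation with the m6A antibody, so it gives transcript levels without enrichment for the mark. The labels do not say how many animals gave each culture.

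The authors deposited these levels in FPKM, fragments scaled to transcript length and library size, for genes to which a differential m6A peak was assigned. Of 4731 such genes, 4403 have a level, and 3679 of these averaged 1 FPKM or more over both libraries and were kept. Those 3679 genes are the members. The difference of a gene is log2(FPKM + 1) in KO minus the same in WT, a scale on which differences of low genes are understated. With 1 library per genotype there are no replicates, no value has an error, and no difference was tested; a fixed size of 0.5 on this scale stands in for a call. The depth of the libraries is unknown, since the files hold no read totals. Mitochondrially encoded transcripts were listed at only a few FPKM, such as mt-Co3 at 5.45 in WT and 4.59 in KO. That is unusual for poly(A) RNA, and how these reads were counted is not given. Genes without a differential peak were not analysed here, and the input libraries also enter the peak difference that put a gene in the table, so the members are not a random sample of the transcriptome. At the edge of the rule, Qtrt2 (0.934 FPKM in WT, 1.06 in KO) fell just outside and Snora41 (0.969 and 1.05) just inside.

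METTL3 is the catalytic subunit of the nuclear complex that methylates adenosines of messenger RNA. The mark is bound by YTH-domain proteins, and a well-known effect of cytoplasmic binding is faster decay of the transcript. Loss of the writer can also let cellular RNA be seen by sensors of double-stranded RNA, whose signalling induces interferons and the genes they switch on. The input level of Mettl3 itself was not analysed here, so that transcript gives no check of the genotype labels.

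Differences between the libraries were small for most genes and leaned towards KO. The median difference was 0.07, with quartiles of -0.02 and 0.17, and 2540 of 3679 genes (69.0%) stood above 0. The lean is modest beside the gap between single genes: 51.8% of genes lay within 0.1 of the median and 86.2% within 0.25. At least 0.5 higher in KO were 66 genes (1.79%), and at least 0.5 lower were 41 (1.11%). With the all-gene median subtracted from each difference these counts were 47 and 58, so the balance between directions depends on the scaling. A difference of at least 1 was reached by 11 genes upwards (0.299%) and by 9 downwards (0.245%). Of those 11, 5 carry predicted names, and of those 9, 3 carry predicted names and 3 are pseudogenes. Predicted genes were also more widely spread, with quartiles of -0.08 and 0.22, against -0.02 and 0.17 in genes with ordinary names. The summed level of all members was 137487 FPKM in WT and 133743 in KO, a gap of 3744 FPKM, while Lyz2 alone was lower by 3918 FPKM in KO.

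**Figure D1:**
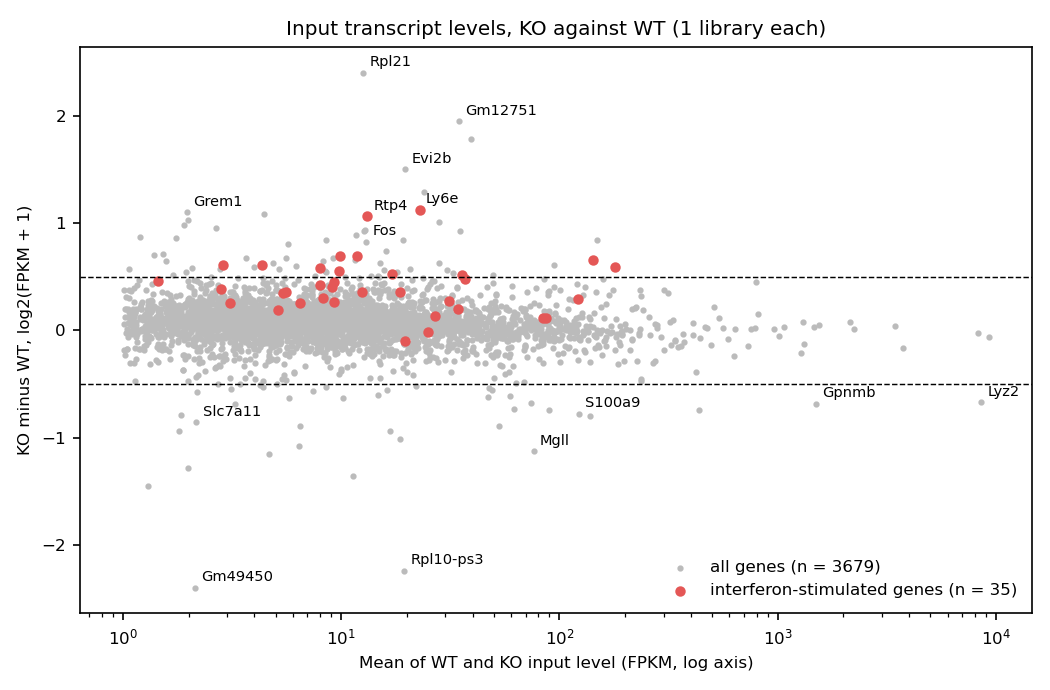
Each point is 1 of 3679 genes; the x axis is the mean input level in FPKM on a log axis, the y axis the difference KO minus WT in log2(FPKM + 1), and dashed lines mark 0.5 and -0.5. Most points lie close to 0 at every level. Of the 35 interferon-stimulated genes (red), 33 lie above the all-gene median and 12 are past 0.5.

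The authors' own test of the input difference called nothing after adjustment. Of 4403 genes in the authors' deposited table, 19 (0.432%) had a p under 0.05, 12 higher and 7 lower in KO, none had an adjusted p under 0.05, and the lowest adjusted p was 0.562, for Rpl21. These p-values compare 2 libraries, not genotypes.

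The clearest group was that of interferon-stimulated genes, the antiviral and immune transcripts switched on when interferon receptors activate STAT and IRF transcription factors. Of 94 listed symbols 35 had a level, 33 of the 35 were higher in KO than in WT, and the same 33 stood above the all-gene median. At least 0.5 higher were 12 of 35 (34.3%), against 1.79% of all genes, and none was lower by 0.5. The median difference was 0.39, against 0.07 over all genes, with quartiles of 0.26 and 0.56. Their summed level was 880 FPKM in WT and 1177 FPKM in KO. The group was itself part of an earlier description of these libraries, so its position is a description and not an independent finding.

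Sequences upstream of the 4 members with the widest gaps that have a promoter in the RefSeq table are shown because an interferon-stimulated response element (ISRE), the site bound by complexes of STAT and IRF proteins, is known from many such genes. The ISRE motif searched, on both strands, was GAAA, then 2 bases of any kind, then GAAA, and matches may overlap. Other promoter motifs were searched as well. Each sequence runs 5′ to 3′ on the gene's strand from 250 bases before to 50 bases after the RefSeq start (GRCm38.p6), with matches in capitals.
Isg15, chr4:156200769-156201068, minus strand: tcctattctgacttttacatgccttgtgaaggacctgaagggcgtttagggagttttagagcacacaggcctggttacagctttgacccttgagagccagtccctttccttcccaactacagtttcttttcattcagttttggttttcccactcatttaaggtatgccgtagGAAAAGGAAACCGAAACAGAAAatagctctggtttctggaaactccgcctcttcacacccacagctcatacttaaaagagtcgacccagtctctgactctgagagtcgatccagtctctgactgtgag
Ifit3, chr19:34583279-34583578, plus strand: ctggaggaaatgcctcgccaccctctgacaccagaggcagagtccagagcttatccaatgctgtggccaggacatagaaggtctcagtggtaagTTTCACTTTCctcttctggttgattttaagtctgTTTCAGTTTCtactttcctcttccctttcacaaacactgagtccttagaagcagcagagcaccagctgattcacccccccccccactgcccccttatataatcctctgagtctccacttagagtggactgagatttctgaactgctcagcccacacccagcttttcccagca
Lgals3bp, chr11:118401910-118402209, minus strand: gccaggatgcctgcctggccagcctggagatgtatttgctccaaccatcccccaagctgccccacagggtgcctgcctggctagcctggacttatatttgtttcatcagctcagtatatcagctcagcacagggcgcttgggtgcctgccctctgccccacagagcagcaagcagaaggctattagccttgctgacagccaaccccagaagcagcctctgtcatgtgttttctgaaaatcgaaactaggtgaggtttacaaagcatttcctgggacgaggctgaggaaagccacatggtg
Ifi203, chr1:173942623-173942922, minus strand, the first of its 2 starts in the table: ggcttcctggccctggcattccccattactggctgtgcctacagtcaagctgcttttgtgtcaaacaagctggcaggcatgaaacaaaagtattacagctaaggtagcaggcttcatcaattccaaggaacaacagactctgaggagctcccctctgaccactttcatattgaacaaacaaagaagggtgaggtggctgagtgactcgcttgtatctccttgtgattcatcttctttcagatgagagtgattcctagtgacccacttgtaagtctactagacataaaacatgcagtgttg

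The Isg15 window held 3 overlapping matches, which begin 78, 72 and 66 bases before the start, and the Ifit3 window held 2 matches on the other strand, 156 and 122 bases before it. No match was found in the windows shown for Lgals3bp and Ifi203. Of the 35 genes 26 had a promoter in the table, and 13 of these (50.0%) held the motif in at least 1 window, against 3.99% of all 27025 genes in the table and 3.83% of the 2925 members found there. Among the members at least 0.5 higher in KO, 8 of 38 with a promoter held it (21.1%), and 6 of those 8 belong to the interferon list. Outside that list, 2 of 29 higher members held it (6.90%). Within the list it was held by 6 of 9 genes past 0.5 (66.7%) and by 7 of 17 others (41.2%). The motif was thus frequent in the list on both sides of 0.5, and its part in the KO difference was not tested. Of the members at least 0.5 lower, 0 of 23 did, against 3.83% of all members. So few genes cannot tell these shares apart. Of the other motifs searched, the AP-1 site (TGANTCA) was held by 4 of the 9 list genes past 0.5 and by 0 of the 17 not past it. Over all members its share was 6.56%, and this motif was picked after its values were seen. A match is a match of letters only.

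Among surface and secreted products, Ly6e, a lipid-anchored protein that restricts coronavirus entry, had 14.0 FPKM in WT and 31.7 in KO. Rtp4, a chaperone of receptors, stood at 8.14 and 18.1 FPKM. These were the 2 widest gaps of the list, 1.12 and 1.06, or 2.26 and 2.22 times the WT level. Lgals3bp, a secreted galectin-binding glycoprotein, was among the abundant members at 110 FPKM in WT and 173 in KO, a difference of 0.65. Ifitm3, a membrane protein that blocks fusion of entering viruses, stood at 144 and 217 FPKM (0.59), whereas Bst2, which tethers budding viruses, stood at 83.5 and 90.7 FPKM (0.12). Cd274, the checkpoint ligand PD-L1, was 1 of the 2 members below 0, at 20.4 FPKM in WT and 18.9 in KO (-0.10).

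Classical intracellular effectors were higher as well. Isg15, the ubiquitin-like modifier, had 8.83 FPKM in WT and 14.8 in KO, and Ifit3, which belongs to a family that binds foreign RNA ends, at 7.35 and 12.4, each a difference of 0.69. The GTPases of intracellular defence followed, with Ifi47 at 6.22 and 9.77 FPKM (0.58), Irgm1 at 7.75 and 11.8 (0.55) and Irgm2 at 6.66 and 9.25 (0.42). Of the DNA-binding family that includes Ifi203, Ifi203 itself stood at 3.23 and 5.46 FPKM (0.61) and Ifi207 at 30.8 and 43.2 (0.47). Schlafen genes stood at 29.4 and 42.3 FPKM for Slfn5 (0.51), 7.67 and 10.4 for Slfn8 (0.40) and 109 and 134 for Slfn2 (0.29). Near-identical relatives exist for the Ifi200 genes, the Schlafen genes and Irgm2, and the sources used here do not say how reads shared between copies were counted, so these values are uncertain.

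Regulators of the response went the same way. Nlrc5, which drives MHC class I genes, had 2.08 FPKM in WT and 3.69 in KO (0.61). Helz2 stood at 2.30 and 3.31 FPKM (0.39) and Znfx1, an RNA helicase that senses viral RNA, at 16.1 and 20.9 (0.36). Ubiquitin ligases of the list ran from Rnf213, at 13.9 and 20.4 FPKM (0.53), over Trim25, at 28.1 and 34.2 (0.27), to Trim21, at 4.74 and 5.56 (0.19). Pml, Daxx, Parp9 and Parp10 lay between 0.27 and 0.45. Sensing and editing of RNA was represented by Dhx58, at 5.83 and 7.17 FPKM (0.26), and Adar, which edits adenosine in double-stranded RNA, at 7.31 and 9.25 (0.30). The smallest positive differences were those of Shisa5 (0.11), Bst2 (0.12), Samhd1 (0.13), Trim21 (0.19) and Ifi27 (0.20), and Tor3a stood at -0.02. The remaining members, Cmpk2 and Ifit1bl1, stood at 0.26 and 0.46.

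**Figure D2:**
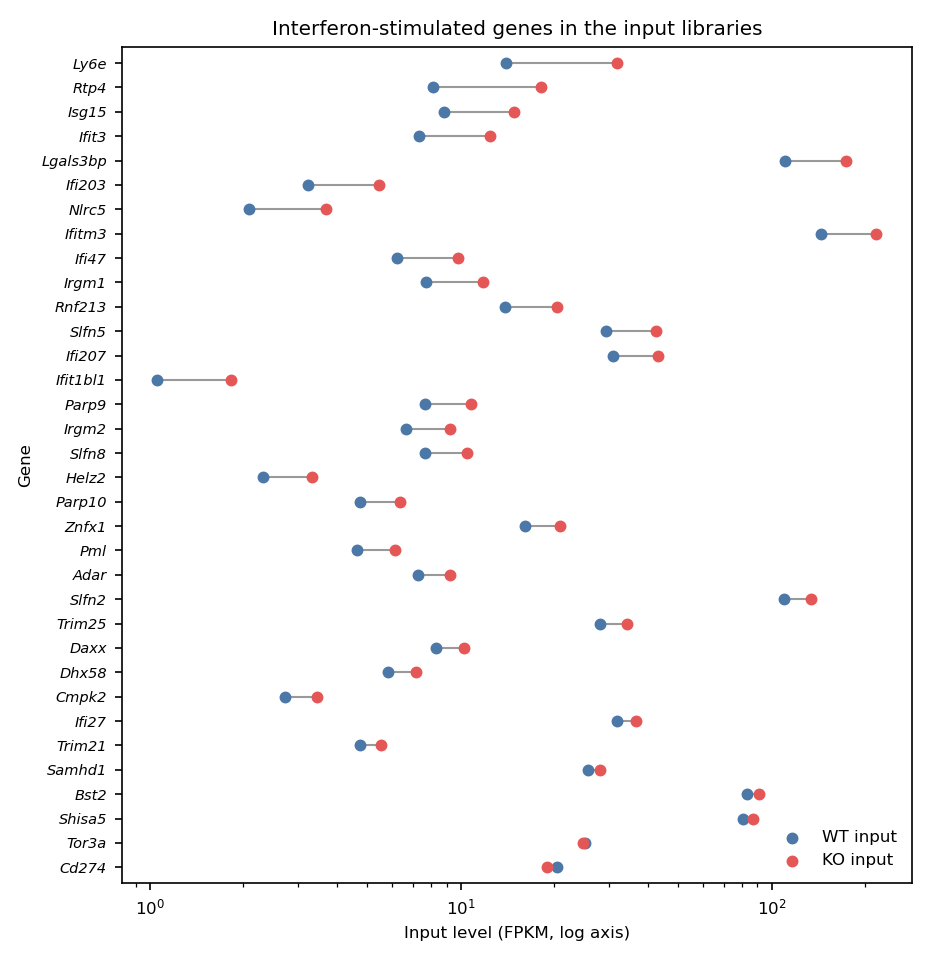
Input levels in FPKM on a log axis of 34 interferon-stimulated genes, WT in blue and KO in red, 1 library each, ordered by their difference. KO lies to the right of WT in 32 of these 34, from Ly6e at 1.12 down to Shisa5 at 0.11, and to the left in Tor3a and Cd274.

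Genes that produce or receive the interferon signal did not stand so far apart. Of 27 symbols 11 had a level, and 9 of the 11 were above 0 (81.8%, against 69.0% of all genes). The median was 0.11, against 0.07 over all genes, and 1 gene was past 0.5 (9.09%, against 1.79%). That gene was Trex1, the exonuclease that degrades cytosolic DNA, at 11.8 FPKM in WT and 20.3 in KO (0.74). The receptor chains Ifnar1, at 18.7 and 19.5 FPKM (0.06), and Ifngr1, at 33.2 and 33.8 (0.02), and the kinase Jak1, at 31.6 and 32.4 (0.03), were close to equal in the libraries. The transcription factor Irf3, which acts downstream of RNA and DNA sensors, stood at 8.46 and 10.1 FPKM (0.23), and Irf5 at 59.4 and 58.0 (-0.03). Endosomal RNA sensing was represented by Tlr3 at 2.44 and 3.02 FPKM (0.23), Tlr7 at 51.7 and 55.7 (0.11) and their escort Unc93b1 at 200 and 230 (0.20). Aim2, a sensor of cytosolic DNA, stood at 7.54 and 7.49 FPKM (-0.01), and Irf2bp2 at 23.6 and 29.1 (0.29).

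Antigen presentation divided by gene. In the class I list 10 of 21 symbols had a level. Of these 7 were above 0 (70%, against 69.0% of all genes), and the median of 0.08 was near that of all genes. H2-Q4 had 12.4 FPKM in WT and 18.8 in KO (0.56), H2-K1 at 277 and 352 (0.35) and the peptide transporter subunit Tap2 at 13.2 and 17.0 (0.34). The light chain B2m, at 2089 and 2207 FPKM (0.08), and H2-D1, at 1273 and 1340 (0.07), lay at the all-gene median. Class I genes are close copies of each other, so reads may be divided between them in either library. In the class II list 6 of 7 listed genes passed the filter: H2-Eb1, at 87.4 and 114 FPKM (0.38), H2-Aa, at 77.2 and 99.1 (0.36), and their transactivator Ciita, at 3.76 and 4.80 (0.28), were higher, whereas the co-stimulatory Cd83 and Cd80 stood at -0.14 and -0.13.

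The 15 widest gaps each way among ordinarily named genes averaging 5 FPKM or more held 4 members of the interferon list, all in KO: Ly6e, Rtp4, Isg15 and Ifit3. Rpl21 led, at 3.35 FPKM in WT and 21.9 in KO (2.40), a ribosomal protein gene with many processed copies in the genome, so its value is uncertain. Evi2b, a leukocyte membrane protein, stood at 9.76 and 29.5 FPKM, or 3.02 times the WT level. Tomm6, a small subunit of the mitochondrial import pore, stood at 18.3 and 37.9 FPKM (1.01). The endosomal aspartic protease Ctse stood at 8.57 and 17.3 FPKM (0.93) and the endocytic adaptor Dab2 at 23.9 and 46.3 (0.93). Sfi1, a centrosome protein, stood at 8.49 and 17.0 FPKM (0.92), and B4gat1, a glycosyltransferase, at 3.87 and 7.53 (0.81).

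A pair of the top 15 belongs to the transforming growth factor beta and matrix biology of the cell. Thbs1, the matrix glycoprotein thrombospondin 1 that can activate latent TGF-β, had 7.95 FPKM in WT and 15.5 in KO (0.88), and Tgfbi, a secreted protein induced by TGF-β, at 13.4 and 24.8 (0.84). In the TGF-β and BMP signalling list 11 of 12 listed genes passed the filter. Tgfbi alone was past 0.5 (9.09%, against 1.79% of all genes), and the median was 0.12, against 0.07. Above 0 were 8 of the 11 (72.7%, against 69.0%). The receptors Tgfbr1 (0.07) and Tgfbr2 (0.12) and the repressor Ski, at 18.0 and 22.7 FPKM (0.32), were among them, and Tgfb1 itself stood at 70.7 and 69.2 (-0.03).

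Few matrix and stromal transcripts had a level. Of 44 symbols 10 had a level and 7 passed the filter; 2 of the 7 (28.6%, against 1.79% of all genes) were past 0.5, Thbs1 among them. The list held both transcripts under the filter and abundant ones. The 3 members under the filter were also higher in KO, with Cald1, an actin-binding protein of contractile cells, at 0.347 and 0.967 FPKM, Tpm2 at 0.207 and 0.406 and Fbn1 at 0.0597 and 0.116. Of the 7 that passed, 5 were above 0 (71.4%, against 69.0% of all genes). Among these were Spp1, at 767 and 852 FPKM (0.15), and Mmp14, at 11.1 and 13.8 (0.29). The 2 below 0 were Cd9, at 298 and 241 FPKM (-0.30), and Mmp12, at 170 and 145 (-0.23), both expressed by macrophages. Further genes known from fibroblasts, chosen after their values were seen, were Grem1, at 0.883 and 3.04 FPKM, Aebp1, at 0.962 and 2.86, Prrx1, at 0.0927 and 0.268, and Cdh11, at 0.156 and 0.491. Prrx1 and Cdh11 are under the filter. These 4 and Cald1 had a p between 0.0118 and 0.0393 in the authors' deposited table, and none an adjusted p under 0.05. Since the 4 were chosen after their values were seen, these p-values are no independent evidence. In RNA from a whole culture, more cells of a kind and more RNA per cell cannot be told apart. The part of such cells in the results on Thbs1 and Tgfbi was not tested; no collagen of the list had a level.

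Genes lower in KO included some of the most abundant transcripts of macrophages. Lyz2, which encodes lysozyme and is the locus that drives the Cre, had the highest WT level of all members, 10533 FPKM, and stood at 6615 FPKM in KO (-0.67). LysM-cre is inserted at this gene, and an effect of that allele and a difference of the cells cannot be told apart. Gpnmb, a lysosomal glycoprotein of lipid-laden macrophages, stood at 1839 and 1145 FPKM (-0.68). The complement subunit C1qb stood at 545 and 326 FPKM (-0.74), while its partners did not share this: C1qa stood at 210 and 262 (0.32) and C1qc at 374 and 365 (-0.03). Itgax, the integrin chain CD11c, stood at 71.9 and 46.7 FPKM (-0.61).

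Lipid handling held the widest gap downwards among ordinarily named genes averaging 5 FPKM or more. Mgll, the monoacylglycerol lipase, had 105 FPKM in WT and 47.5 in KO (-1.13), so that WT was 2.21 times KO. The fatty acid binding proteins Fabp4, at 58.7 and 39.5 FPKM (-0.56), and Fabp5, at 478 and 364 (-0.39), lay on the same side. Of 12 members with a level, 8 were below 0, against 1139 of all 3679 genes, with a median of -0.13. Past -0.5 were 2 of the 12 (Mgll and Fabp4), against 1.11% of all genes. Plin2, which coats lipid droplets, stood at 188 and 193 (0.04). Cholesterol synthesis had the lowest median of any list with at least 6 members, -0.15. Below 0 were 6 of its 9 genes, against the same 1139 of 3679, and none was past -0.5. Its members included the isomerase Idi1, at 6.64 and 4.56 FPKM (-0.46), Acat2 at 2.91 and 2.29 (-0.25) and Msmo1 at 10.2 and 8.59 (-0.22). Efflux genes stood on the other side, with the transporters Abca1 at 28.6 and 33.5 FPKM (0.22) and Abcg1 (0.20) and a list median of 0.14.

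S100a8 and S100a9, the subunits of calprotectin, a calcium-binding complex most abundant in neutrophils, were lower together. S100a9 had 155 FPKM in WT and 90.2 in KO (-0.78), and S100a8 at 77.7 and 46.4 (-0.73). They were the only 2 of 19 neutrophil markers with a level, and the summed level of that list was 233 FPKM in WT and 137 in KO. Other listed markers do not carry a level here, so the part of neutrophils in this difference was not tested. Ighg2b, an immunoglobulin heavy chain of B-lineage cells chosen after its values were seen, stood at 6.79 and 2.51 FPKM (-1.15). Of the B cell markers Cd22, Blnk and Cd79b had a level, together 31.3 FPKM in WT and 28.9 in KO.

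The remaining genes among the 15 widest downward gaps have varied roles. Cdkn1c, an inhibitor of cyclin-dependent kinases, stood at 113 and 66.8 FPKM (-0.74), and Gadd45a, a p53 target, at 57.4 and 37.0 (-0.62). Bex1, an X-linked adaptor, stood at 68.9 and 36.8 FPKM (-0.89), the cysteine dioxygenase gene Cdo1 at 8.69 and 4.24 (-0.89), the phosphatase Phospho1 at 7.26 and 4.33 (-0.63) and the receptor Gprc5b at 18.0 and 11.5 (-0.61). Rn7sk, a noncoding RNA that restrains transcription elongation, differed by -1.01 from 25.2 FPKM in WT, in libraries made from poly(A) RNA. Ppia, at 175 and 100 FPKM (-0.80), has many processed copies, so its value is uncertain.

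**Figure D3:**
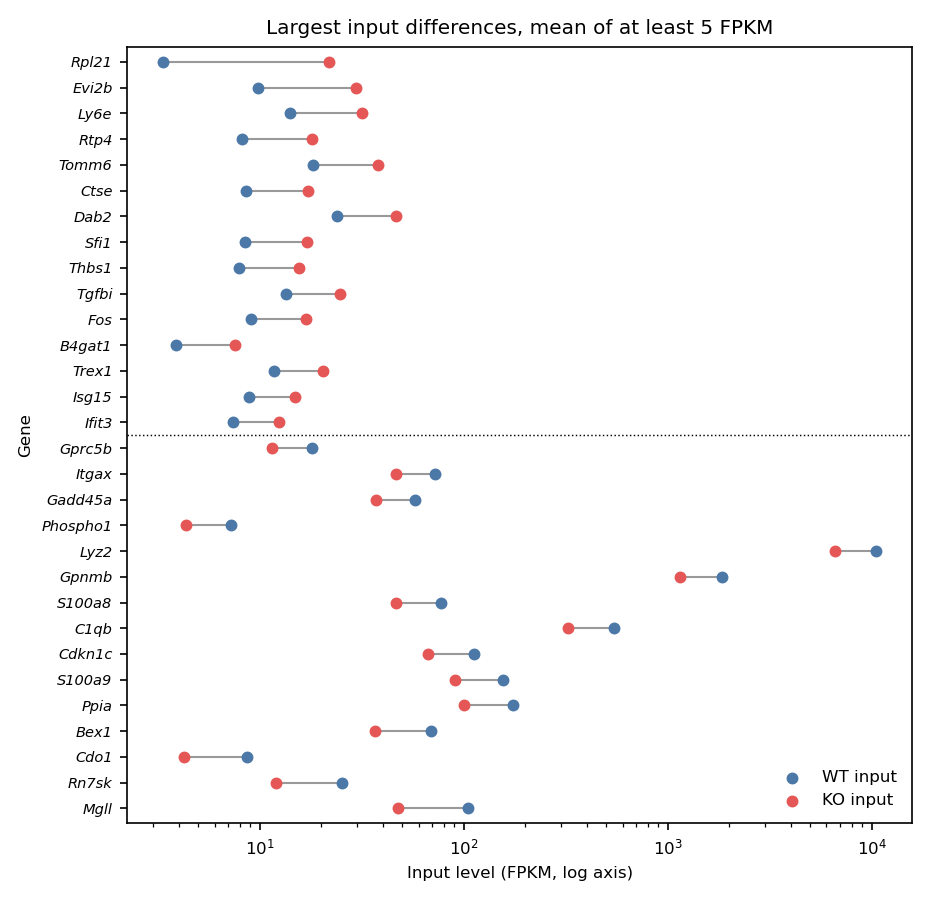
Input levels in FPKM on a log axis of the 15 genes with the widest gap upwards (top) and the 15 with the widest gap downwards (bottom), WT in blue and KO in red, 1 library each. The lower genes include the most abundant ones, Lyz2 at 10533 and 6615 FPKM and Gpnmb at 1839 and 1145 FPKM.

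Macrophage identity genes had levels in both libraries, and those with a level were evenly divided around 0. Of 27 symbols in the list 18 had a level, and all 18 passed the filter. Above 0 were 9 (50%, against 69.0% of all genes) and below 0 were 9, with a median of 0.01, or -0.06 relative to the all-gene median. The lineage markers Adgre1, at 247 FPKM in WT and 269 in KO (0.13), Cd68, at 1029 and 994 (-0.05), and the transcription factor Spi1, at 90.5 and 101 (0.16), were at similar levels. Past 0.5 were Fcgr1, the high-affinity receptor for immunoglobulin G, at 40.6 and 58.4 FPKM (0.51), and downwards Lyz2. Maf, at 29.3 and 38.9 FPKM (0.40), and the lipopolysaccharide co-receptor Cd14, at 153 and 198 (0.37), came next. Of other cell types, no marker of erythroid cells, mast cells and basophils, or progenitors had a level. Il7r, at 80.1 and 57.1 (-0.48), was the only one of 15 T and NK markers. Levels are listed only for genes with a differential peak, so a missing level does not show that such cells were absent. The osteoclast list had 4 of 13, from the proton pump subunit Atp6v0d2, at 274 and 201 FPKM (-0.45), to Nfatc1, at 7.00 and 8.34 (0.22), with a summed level of 404 FPKM in WT and 332 in KO. The dendritic list had 3 of 14, Itgax, Bst2 and Irf4, together 156 FPKM in WT and 138 in KO.

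Toll-like receptor signalling had 2 genes with a wide gap, both receptors of microbial products. Tlr2, the receptor for bacterial lipoproteins, had 21.9 FPKM in WT and 34.2 in KO (0.62), and Tlr4, which recognises lipopolysaccharide, at 17.1 and 22.9 (0.40). The other 5 receptors of the list lay between -0.05 and 0.12. Genes acting downstream lay between -0.17 and 0.18: Ticam1 stood at a difference of -0.17, Irak2 at 11.1 and 10.5 (-0.07), Traf6 at 4.74 and 4.69 (-0.01), Map3k7 at 8.03 and 8.37 (0.05), Rel at 6.04 and 6.89 (0.16) and Tab2 at 17.4 and 19.9 (0.18). In all, 14 of 27 symbols had a level, and 10 of the 14 (71.4%) were above 0, against 69.0% of all genes. Tlr2 alone was past 0.5 (7.14%, against 1.79%), and the median of 0.08 was close to the 0.07 of all genes. Negative regulators of inflammation, with 16 genes and a median of 0.11, had none past 0.5; the mRNA-destabilising Zfp36l1, at 24.4 and 32.9 FPKM (0.42), and the phosphatase Dusp1, at 5.98 and 7.56 (0.29), were highest, and Irak3, the kinase-dead brake on Toll-like receptors, stood at 5.22 and 6.23 (0.22).

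Cytokine genes with a level were few. Of 34 symbols 6 had one, 5 above 0 (83.3%, against 69.0% of all genes) and none past 0.5, with a median of 0.22. Csf1, which encodes the growth factor supplied to these cultures, had 1.94 FPKM in WT and 3.14 in KO (0.49), the chemokine Ccl9 at 71.0 and 99.4 (0.48), Ccl6 at 150 and 178 (0.25) and Tnf at 5.03 and 5.85 (0.19). Among 17 immediate early genes, Fos was past 0.5, at 9.10 and 16.9 FPKM (0.82), while its partners Jun, at 57.3 and 59.7 (0.06), Junb, at 45.8 and 50.8 (0.15), and Jund, at 57.8 and 57.6 (-0.01), were not. Klf2 stood at 2.66 and 3.87 FPKM (0.41) and Klf9 at 4.78 and 3.23 (-0.45), so the list went both ways around a median of 0.11. Dusp5, under the filter, stood at 0.466 and 1.46 FPKM. Markers of alternative activation went both ways as well: beside Gpnmb, the interleukin 4 receptor chain Il4ra stood at 12.2 and 17.6 FPKM (0.50, just under the size used), and Apoe at 8313 and 8180 (-0.02).

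Iron and oxidative stress genes lay mostly below 0, 10 of 14, against 1139 of all 3679 genes, with a median of -0.07. Slc7a11, the cystine importer that feeds glutathione synthesis, had the widest gap, at 3.08 FPKM in WT and 1.25 in KO (-0.86, p = 0.0406 in the authors' deposited table). The transferrin receptor Tfrc stood at 46.5 and 37.4 FPKM (-0.31), the glutathione peroxidase Gpx4 at 111 and 95.9 (-0.21) and the ferritin heavy chain Fth1 at 3964 and 3530 (-0.17), whereas the ferrireductase Steap3 stood at 23.5 and 31.1 (0.39). Slc7a11 is also a member of the integrated stress response list. There 7 of 9 were above 0 (77.8%, against 69.0% of all genes), and Atf4 stood at 32.3 and 34.5 FPKM (0.09). The lysosome list, with 17 genes, and glycolysis, with 10, had medians of 0.02 and 0.00 and none past 0.5 in either direction.

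The m6A machinery genes that had a level were all slightly higher in KO. Of 12 writer-complex symbols 6 had a level, and of 14 symbols of readers and erasers 6. All of these were above 0, against 69.0% of all genes. The medians were 0.21 and 0.20, and none reached 0.5. Ythdf2, the reader that recruits the deadenylation machinery, had the widest gap, at 9.70 FPKM in WT and 12.6 in KO (0.35). The ubiquitin ligase Cbll1 stood at 4.22 and 5.40 FPKM (0.29) and the adaptor Wtap at 10.1 and 12.4 (0.28), and Rbm15 was at 0.27, Ythdc1 at 0.26 and Ythdf3 at 0.22. Virma, Zc3h13, Rbm15b, Fto, Hnrnpa2b1 and Prrc2a lay between 0.04 and 0.19. Of the 12 genes with a level, Prrc2a alone (0.04) lay below the all-gene median of 0.07.

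Large gene families lay on either side of the all-gene median of 0.07 and of the 69.0% of all genes above 0. RNA helicases had 19 of 20 genes above 0 and a median of 0.17, led by Ddx59 (0.33) and Ddx24, at 7.51 and 9.56 FPKM (0.31). Genes of mRNA decay had 15 of 16 above 0 (median 0.16), with Edc3 (0.28) and Upf1, the central factor of nonsense-mediated decay, at 12.7 and 15.1 FPKM (0.24). Trim and Rnf ubiquitin ligases had 32 of 40 above 0 (0.13), zinc finger genes named Zfp 87 of 107 (0.11) and splicing factors 29 of 36 (0.11). On the other side, cytosolic ribosomal protein genes had 15 of 45 above 0 (median -0.03), subunits and assembly factors of the respiratory chain 12 of 39 (-0.03) and translation factors 10 of 27 (-0.04). In the highest of 5 classes of mean level, from 25.3 FPKM, 55.3% of all genes were above 0, with a median of 0.02. The part of abundance in the position of these families was not tested. Solute carriers, with 43 of 63 above 0 (0.07), lay at the all-gene median, and Rab GTPases, with 6 of 8 (0.02), below it. With the all-gene median subtracted the same order holds by construction, and the Trim and Rnf, Zfp and splicing medians come within 0.06 of 0. Only Rnf146 (0.55), Rnf213 (0.53) and Rpl21 (2.40) were past 0.5 in these families, and none was past -0.5, apart from the solute carriers, which had 1 gene past it each way.

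**Figure D4:**
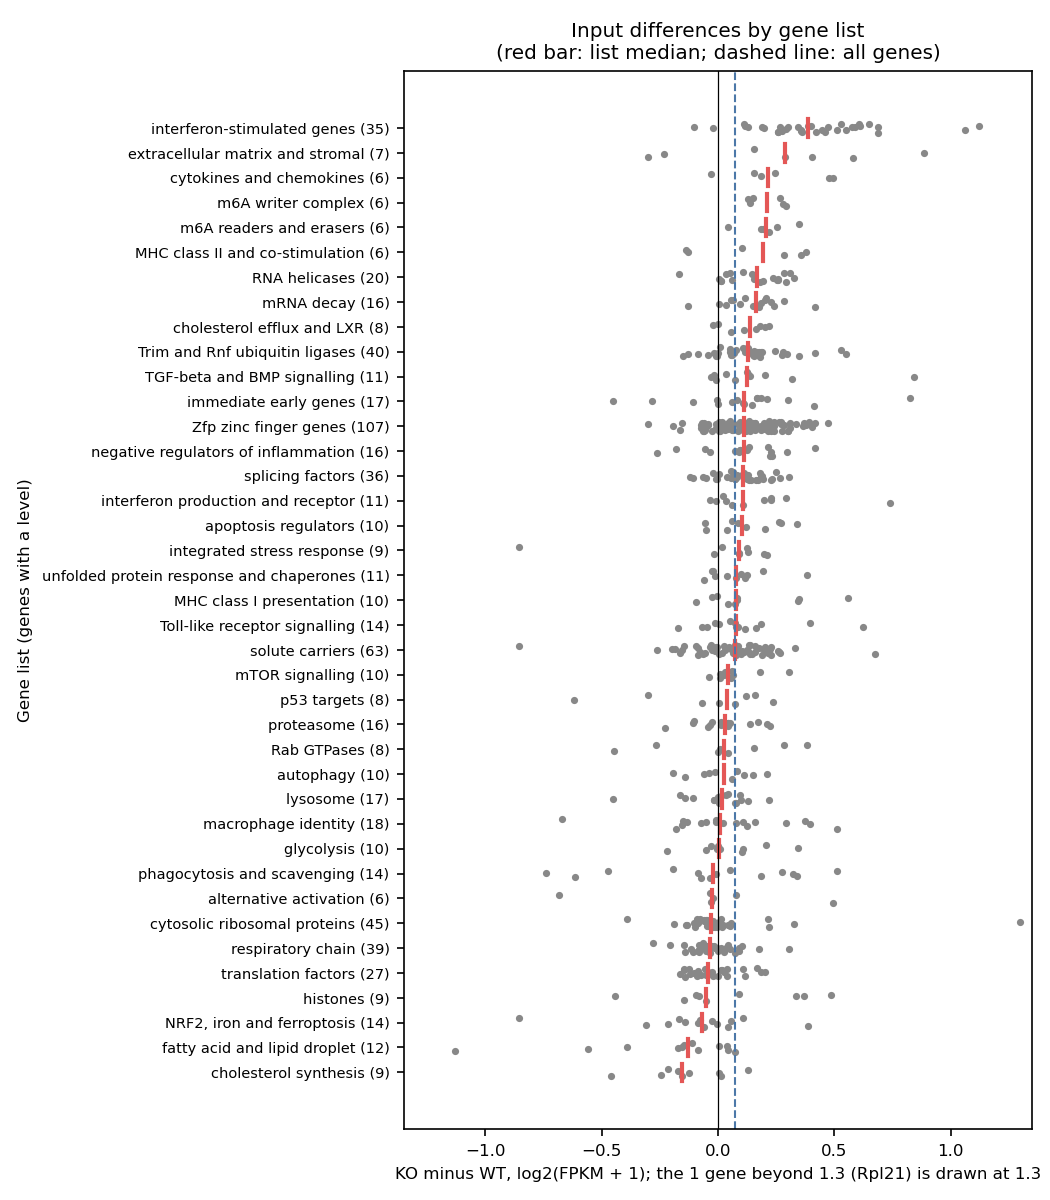
Each grey point is a gene with a level, placed by its difference KO minus WT in log2(FPKM + 1); rows are the gene lists with at least 6 such genes, the red bar is the list median and the dashed line the all-gene median of 0.07. The interferon-stimulated genes lie highest (median 0.39) and cholesterol synthesis lowest (-0.15).

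These families also differed in their m6A peaks. Of the 107 Zfp genes 97 had differential peaks that were all lower in KO, against 63.8% of all members. So did 16 of 20 RNA helicases and 12 of 16 mRNA decay genes, both small groups. Among ribosomal protein genes it was 1 of 45, and among respiratory chain genes 5 of 39. Across all members, genes with lower peaks only (2349) had a median input difference of 0.10, genes with higher peaks only (1046) 0.00 and genes with both 0.07. The gap held in every class of mean level: in the lowest of 5 classes the medians were 0.10 and 0.05, and in the highest 0.08 and -0.01. The input libraries stand in the denominator of the peak ratio, so both measures share these libraries and their parts cannot be told apart.

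Genes with more m6A peaks in WT had a larger difference. The median was 0.00 for the 274 genes without a peak in the WT list, 0.06 for 1367 genes with 1 peak, 0.08 for 1120 with 2, 0.10 for 536 with 3, 0.09 for 240 with 4 and 0.11 for 142 with at least 5. The share above 0 went from 50.0% without a peak to 85.2% with at least 5. In each of 5 classes of mean level the genes with at least 3 WT peaks had the higher median, 0.10 against 0.06 for genes with 0 or 1 in the lowest class and 0.06 against 0.00 in the highest. Counted in the KO list instead, the medians ran from 0.05 with 1 peak to 0.09 with at least 5, and stood at 0.09 in the 70 genes with none. All these gaps are smaller than the spread among genes, whose quartiles overlap between every pair of neighbouring classes. The WT input also enters the WT peak call, and the part of that shared library was not tested.

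**Figure D5:**
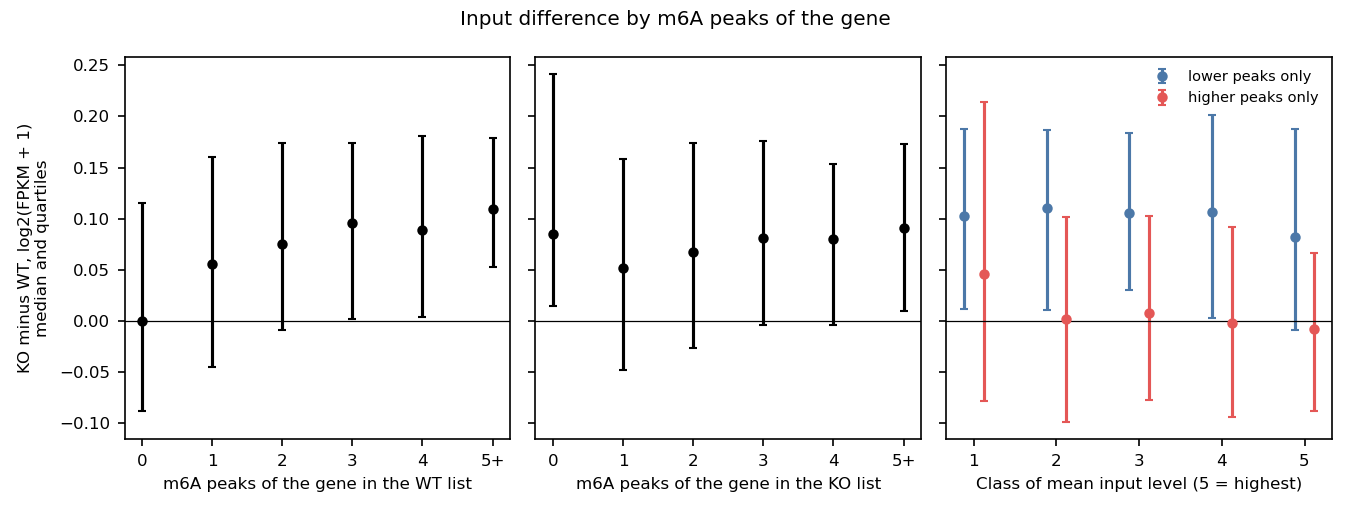
Points are medians and bars quartiles of the difference KO minus WT in log2(FPKM + 1), by the number of m6A peaks of the gene in the WT list (left) or KO list (middle), and by class of mean level for genes with only lower or only higher differential peaks (right). The median goes from 0.00 without a WT peak to 0.11 with at least 5, and lower-peak genes lie above higher-peak genes in all 5 level classes.

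Genes past 0.5 in opposite directions differed in their peaks in the same sense. Of the 66 higher genes 50 (75.8%) had lower peaks only and 13 (19.7%) higher peaks only, and of the 41 lower genes 16 (39.0%) and 24 (58.5%), against 63.8% and 28.4% of all members. These genes were picked by their input difference, and the input also stands in the denominator of the peak ratio. A split in this sense can follow from that choice alone, so it is no independent evidence. Among the 35 interferon-stimulated genes 25 had lower peaks only, where the share over all members was 63.8%. Ly6e, Ifitm3 and Ifi27 have no listed WT peak. The single differential peak of each was higher in KO, at log2 ratios of 0.38, 0.32 and 0.475 in the authors' deposited table. Shisa5, Bst2, Samhd1 and Cmpk2 have WT peaks, and the single differential peak of each was higher in KO as well. Rtp4, Isg15 and Ifit3 had lower peaks, at -0.42, -0.65 and a median of -0.36 in the authors' deposited table.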

How the data were processed

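The levels come from 2 of 4 libraries, WT_input and KO_input, grouped by sample title. The authors deposited FPKM values, and the submitters' processing notes name the build mm10 and the tools edgeR, StringTie, ChIPseeker, HOMER, HISAT2 and fastp, without the role of each. The authors' p-values, adjusted p-values and log2 ratios of peak enrichment were used as deposited. The fold enrichment of WT and KO peaks is the authors' ratio of IP over input, per the file headers, and only the number of listed peaks per gene was printed. Every per-sample column could be tied to a sample.

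One row was kept per gene identifier, since levels were constant within each. Differences are log2(FPKM + 1), KO minus WT, where both libraries averaged 1 FPKM or more. A size of 0.5 counts as past. No test was run. The named genes are the 15 widest gaps each way averaging 5 FPKM or more, without predicted genes and pseudogenes, the 4 widest of each list and all genes of the interferon and m6A lists; the text names only some of the list genes, and other examples were chosen after their values were seen. A few genes that the rule names are not reported here, though they count in the totals. The members, the 52 lists and the rule were chosen with earlier results of these data known. Promoters are from RefSeq (GRCm38.p6), matched by symbol for 2925 of 3679 genes. The script was tested on simulated data. Python 3.11.15, numpy 2.4.6, pandas 2.3.3 and matplotlib 3.10.9 were used. Alternatives were other pseudocounts, filters, centring, a stricter peak set, fewer genes and a larger size.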

Additional observations from a re-analysis of the deposited data

How the results depend on the processing

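No paired analysis was possible because each genotype has 1 library. The same fact leaves every difference without an error, and no replicate could be left out. With a pseudocount of 0.1 FPKM 110 genes were at least 0.5 higher in KO, against 66, and with 5 FPKM 23 were higher and 22 lower, against 41 lower. With a size of 1 instead of 0.5, 11 genes were higher and 9 lower. Without predicted genes, pseudogenes, ribosomal protein genes and mitochondrial genes 27 were lower. The all-gene median of 0.07 became 0.083 with a pseudocount of 0.1 FPKM, 0.045 with 5 FPKM, 0.059 without the filter, 0.062 for genes averaging 5 FPKM or more and 0 by construction when centred. The median of the interferon-stimulated genes, 0.39, became 0.28 with a pseudocount of 5 FPKM, and their number past 0.5 went from 12 to 5 there. Over 45 list medians, centring gave 13 the other sign, all of them medians between 0 and the all-gene median; among them the median difference of mTOR signalling, where 9 of 10 genes were above 0, went to -0.0286. Centring moved 13 of 229 named genes across 0.5 and turned the direction of none that was past it.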
